A study of Mus musculus with 14 samples.

Results

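The libraries described here are 6 poly(A)-selected RNA-seq libraries of spinal motoneurons from wild type mouse embryos at E12.5, set against each other by their signal for Hoxc12, a posterior Hox gene. They were chosen by a measured value and not by a label: the Hoxc12-high set held the 3 WT libraries with Hoxc12 signal above 100 (replicates 1, 3 and 6), and the Hoxc12-low set held the 3 with Hoxc12 signal below 10 (replicates 2, 4 and 5). Together they made up all 6 WT motoneuron libraries, out of 13 libraries with values and 14 samples in the labels. The labels give the 2 sets the same stage, genotype, reporter and sorted fraction, so nothing in them separates the sets.

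In both sets the cells carried the Hb9::gfp reporter, spinal cords were dissected and dissociated with papain, and GFP positive cells were sorted by FACS. The reporter marks cells by the Hb9 promoter, so what was collected depended on where it was active and on which length of cord was dissected, and the labels do not give the dissected levels. The study compared such motoneurons with motoneurons of the 218DKO genotype, which also carried Hb9::gfp and were sorted in the same way (2 libraries), and with other spinal cells. These were V1, V2a and V3 interneurons from E12.5 embryos, labelled with tdTomato from Rosa26:LSL:tdTomato by En1:cre, Chx10:cre and Sim1:cre (1 library each), and progenitors differentiated for 4 days from mES cells, of which one library was sorted for tdTomato driven by Olig2:cre (mES pMN) and one was unsorted (mES NP). A floor plate sample was not analysed here. The labels do not say whether replicates came from separate embryos, litters or pools, so the spread between libraries may be technical.

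Hox genes encode homeodomain transcription factors that lie in the Hoxa, Hoxb, Hoxc and Hoxd clusters. Their order along a cluster follows the order of their expression along the body axis, with low-numbered paralogue groups expressed to the front and high-numbered groups only in caudal segments. In the spinal cord Hox proteins set the segmental pools and columns of motoneurons: members of the middle groups mark brachial and thoracic levels, group 10 marks lumbar levels, and the highest groups mark the caudal lumbar and sacral cord.

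Hoxc12 itself separated the sets by construction and is given without a test. Its signal, a length-scaled abundance deposited by the authors, was 222, 234 and 484 in WT replicates 1, 3 and 6 of the Hoxc12-high set, against 0, 0 and 3.36 in WT replicates 2, 4 and 5 of the Hoxc12-low set. The library just inside the upper threshold had 222 and the one just below the lower threshold had 3.36, with none between them. Estimated from the steps between low values, the 3.36 in WT replicate 5 stood for about 5 reads, and the 3 Hoxc12-high values for about 348, 134 and 604 reads.

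Library depth did not follow the split. The estimated depth was 28600000, 11900000 and 24000000 reads in the Hoxc12-high libraries and 19800000, 15100000 and 28200000 reads in the Hoxc12-low libraries. At these depths 3 reads in a transcript of 2000 bases give a signal of 0.988 to 2.69, so levels near or under that range were at the limit of detection. The signal of the ribosomal RNA precursor Rn45s was 644, 27943 and 4275 in the Hoxc12-high libraries and 10197, 14356 and 2345 in the Hoxc12-low libraries; high and low Rn45s occurred in both sets. Over genes whose mean signal reached 10, the WT libraries correlated at 0.961 to 0.983, and 5 of the 6 had their best match in the other set.

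The WT libraries carried motoneuron transcripts at like levels in both sets. Mnx1, which encodes the Hb9 protein, had signal of 2808, 3367 and 3140 in the Hoxc12-high libraries and 2194, 3296 and 3995 in the Hoxc12-low libraries. Chat, which makes acetylcholine, had 499.8, 339 and 448 in the Hoxc12-high libraries and 355, 352 and 394 in the Hoxc12-low libraries. All 17 genes of a motoneuron identity list were tested, none separated the sets, and their median log2 difference was 0.02, against 0.003 over all genes tested. In the V1, V2a and V3 libraries Mnx1 was at 0.775, 7.46 and 3.16.

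Few genes passed a fit across all genes between the sets. Of 16180 genes tested with limma-trend on log2(signal + 1), 5 were higher in the Hoxc12-high libraries at a Benjamini-Hochberg adjusted p under 0.05 (0.0309% of genes tested) and 0 were lower (0%). At an unadjusted p under 0.05 in that fit there were 339 of the 16180 genes, 241 higher and 98 lower. This is a smaller share than the 0.05 that such a threshold passes where nothing differs. Hoxc12 is among the 5 by construction, and its place there is no result. The other 4 were Kdm5d, Uty, Eif2s3y and Ddx3y of the Y chromosome, of which Kdm5d and Uty reached the mean signal of 1 only through the Hoxc12-high libraries (Hoxc12-low means 0.129 and 0.404). Without WT replicate 5 there were 12 higher. Without the genes of chromosome Y there was 1, which was Hoxc12 itself. With a pseudocount of 0.1 there was also 1, which was Kdm5d, and Hoxc12 did not pass. Because the libraries were divided on values of their own, these counts describe what went with the split and test no labelled condition. By a rule without a p-value, 562 genes (3.47%) had all 3 Hoxc12-high libraries above all 3 Hoxc12-low libraries and 476 (2.94%) had all 3 below. With a mean difference of at least 2-fold as well, these were 123 (0.76%) and 27 (0.167%). An exact permutation test of 3 libraries against 3 cannot go below a p of 0.1, and no such test is given for single genes.

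**Figure D1:**
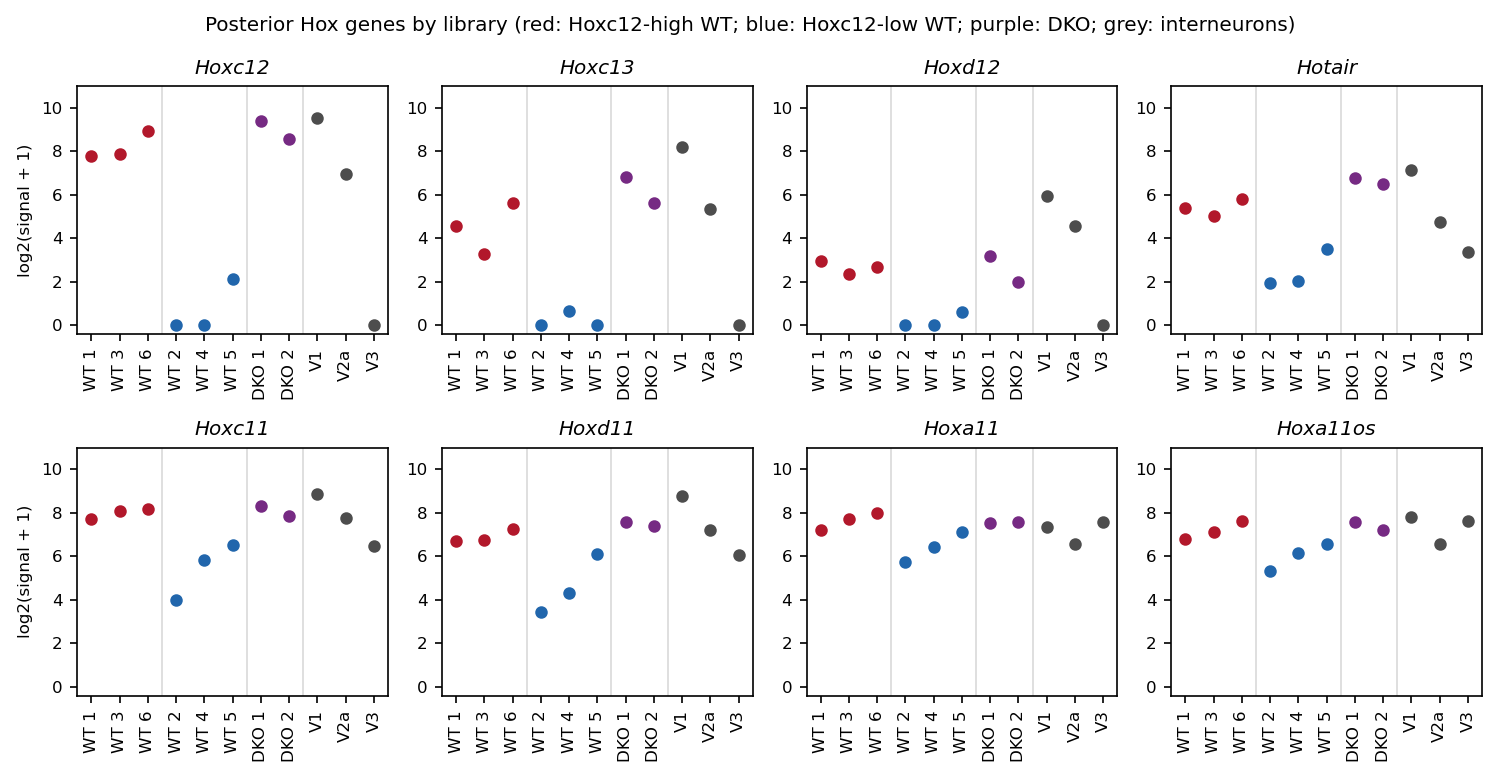
Signal of 8 posterior Hox genes and Hox noncoding RNAs on the log2(signal + 1) scale, 1 point per library, with the Hoxc12-high WT libraries first, then the Hoxc12-low WT libraries, the DKO libraries and the V1, V2a and V3 interneurons. In every panel the 3 Hoxc12-high libraries lie above the 3 Hoxc12-low libraries, and V3 lies at 0 for Hoxc12, Hoxc13 and Hoxd12.

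Hox genes that lay apart between the sets belonged to groups 11 to 13. All 3 genes of group 11 had the Hoxc12-high libraries above all Hoxc12-low libraries, and 0 of the 30 genes tested of groups 1 to 10 were apart in either direction; over all genes tested 3.47% were higher and 2.94% lower in this way. Of the 6 genes of groups 12 and 13 in the table, 3 were tested and also lay apart, and nothing is read from their count: Hoxc12 made the split, and Hoxc13 and Hoxd12 reached the mean signal of 1 only through the Hoxc12-high libraries (Hoxc12-low means 0.191 and 0.186). Hoxc13, the last gene of the Hoxc cluster, had signal of 23.1, 8.75 and 48.0 in the Hoxc12-high libraries and 0, 0.573 and 0 in the Hoxc12-low libraries. The Hoxc12-low values were at or under the limit of detection, and the log2 difference was 4.28 ± 0.60 (SE). Hoxd12, a low gene in all motoneuron libraries, had 6.78, 4.20 and 5.48 in the Hoxc12-high libraries against 0, 0 and 0.559 in the Hoxc12-low libraries, a log2 difference of 2.46. Hoxa13, Hoxb13 and Hoxd13 had means under 1 and were not tested.

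The 3 genes of group 11 were present in every WT library and were graded in both sets. Hoxc11 had signal of 206, 266 and 286 in the Hoxc12-high libraries and 15.01, 56.4 and 92.1 in the Hoxc12-low libraries, a log2 difference of 2.51 ± 0.53 (SE). Hoxd11 had 102, 107 and 150.3 in the Hoxc12-high libraries and 9.76, 19.2 and 67.8 in the Hoxc12-low libraries, a log2 difference of 2.27 ± 0.56 (SE). The sets did not overlap for either gene, and within the Hoxc12-low set replicate 2 was the lowest and replicate 5 the highest for both. Hoxa11 showed the same order with a smaller difference, at 148, 212 and 250.5 in the Hoxc12-high libraries and 51.7, 84.7 and 138 in the Hoxc12-low libraries (log2 difference 1.22 ± 0.33, SE). The summed signal of group 11 was thus 456, 585 and 687 in the Hoxc12-high libraries, against 76.5, 160.0 and 298 in the Hoxc12-low libraries. A sorted pool does not tell fewer cells of a caudal type from less RNA per cell.

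Start sites of group 11 and 12 genes found in the RefSeq promoter table (GRCm38.p6) are shown beside that of Hoxd10, the neighbour of Hoxd11 in the Hoxd cluster. The sets did not overlap for Hoxd11 and Hoxa11 and overlapped for Hoxd10. Nothing is read from the difference of Hoxd12, which reached the mean signal of 1 only through the Hoxc12-high libraries. Each line gives the 30 bases just before the start site, on the gene's strand, with matches to TTTAT or its reverse complement in capitals. TTTAT is the core of the motif bound by Cdx proteins, the caudal homeodomain regulators of Hox genes.
Hoxd12 (chr2:74674983-74675012, plus strand): gaagaacctgcaggcaaagttttgtccaat
Hoxd11 (chr2:74679528-74679557, plus strand): ATAAAtgaaatgactcagaatcccttcccc
Hoxa11 (chr6:52245811-52245840, minus strand): ggatagatttccacgtcagcttacgtctcc
Hoxd10 (chr2:74691861-74691890, plus strand): tctcattggcttggttgtcatgtggtcggc
In the 250 bases before these starts, Hoxd11 held 2 matches and Hoxd12, Hoxa11 and Hoxd10 held 0. A second Hoxd11 start in the table, not shown, held 0, and Hoxa10, which did not separate the sets, held 1 at each of its 2 starts. Of all 32851 promoter entries in the table, 37.3% held at least 1, so a match is common and describes only the letters of the window. Cdx1, Cdx2 and Cdx4 had means under 1 in the WT libraries, and the part of Cdx proteins in the differences was not tested.

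Genes of group 10, which mark lumbar levels, stood at like levels in both sets. Hoxc10 had signal of 1105, 1753 and 1544 in the Hoxc12-high libraries and 1242, 1289 and 1524 in the Hoxc12-low libraries. Hoxd10 had 635, 852 and 922 in the Hoxc12-high libraries and 803, 632 and 867 in the Hoxc12-low libraries. Hoxa10 had the largest difference of the group, with 401, 456 and 590.5 in the Hoxc12-high libraries and 311, 281 and 443 in the Hoxc12-low libraries. The sets overlapped for all 3 genes, and the log2 differences ran between 0.06 and 0.49. The 4 genes of group 9 differed by -0.12 to 0.08 on the log2 scale.

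The anterior and middle groups overlapped between the sets. In groups 5 to 8 the median log2 difference of 11 genes was -0.02, with 5 of them positive. The lowest values there were in the Hoxc cluster: Hoxc5 differed by -0.50, Hoxc8 by -0.41 and Hoxc6 by -0.39. Hoxc8, a gene of brachial to thoracic levels, had signal of 1932, 2239 and 1630 in the Hoxc12-high libraries and 3166, 2916 and 1795 in the Hoxc12-low libraries, so replicate 5 of the Hoxc12-low set lay within the range of the Hoxc12-high set. In groups 1 to 4 the median of 12 genes was 0.17, with 8 positive. Hoxd4 differed by 0.73 and Hoxb4 by 0.69, and both were highest in WT replicate 1, at 422 for Hoxd4 and 112 for Hoxb4.

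**Figure D2:**
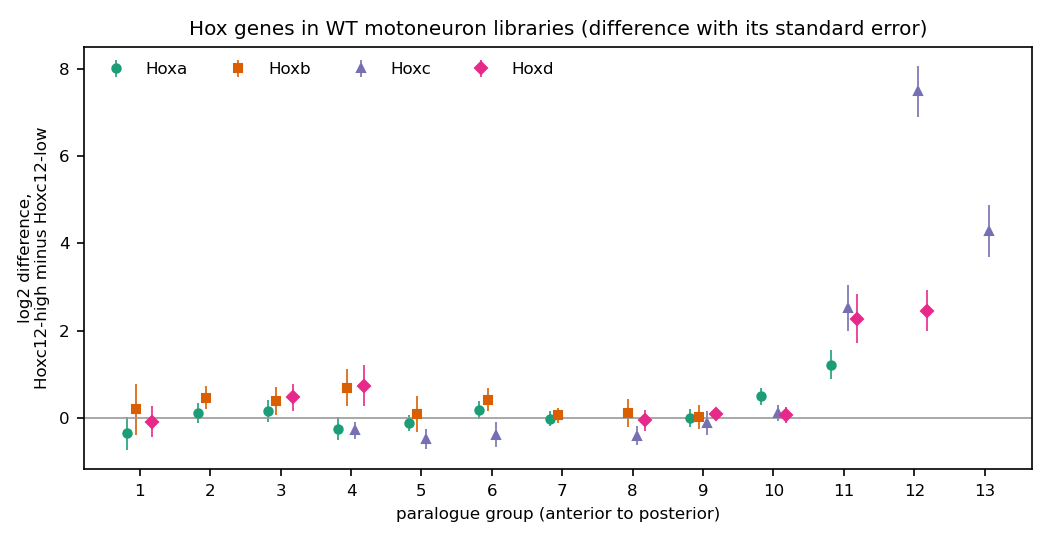
Log2 difference of each tested Hox gene between the Hoxc12-high and Hoxc12-low WT libraries, by paralogue group from anterior to posterior, with its standard error as a bar and a marker for each cluster. Groups 1 to 10 lie between -0.50 and 0.73, and groups 11 to 13 lie between 1.22 and 7.49, where Hoxc12 defined the split.

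As a share of all Hox signal, groups 11 to 13 made up 5.04%, 6.62% and 10.3% in the Hoxc12-high libraries and 0.588%, 1.27% and 2.64% in the Hoxc12-low libraries. Without Hoxc12 the shares were 3.52%, 4.85% and 6.49% in the Hoxc12-high libraries and 0.588%, 1.27% and 2.61% in the Hoxc12-low libraries. The sets did not overlap on either measure, but the first contains Hoxc12, which made the split. The second still contains Hoxc13 and Hoxd12, which reached the mean signal of 1 only through the Hoxc12-high libraries. The sums of group 11 alone, given above, are free of these genes. Groups 5 to 8 made up 45.5%, 44.8% and 38.5% in the Hoxc12-high libraries and 54.8%, 55.1% and 43.7% in the Hoxc12-low libraries, which overlapped through replicate 5.

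**Figure D3:**
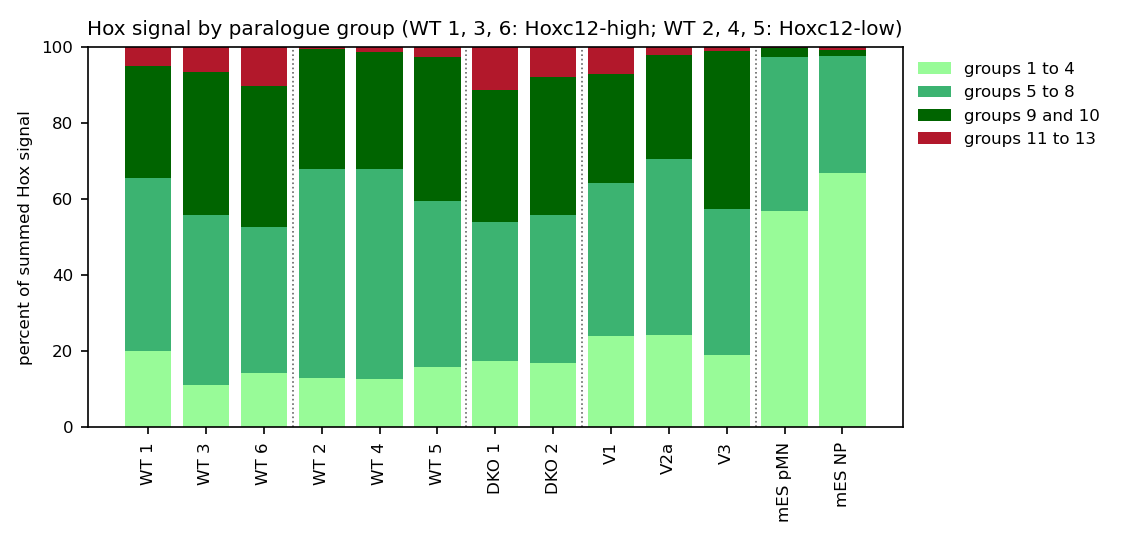
Percent of summed Hox signal in paralogue groups 1 to 4, 5 to 8, 9 and 10, and 11 to 13 in each library, as stacked bars with the Hoxc12-high WT libraries at the left, then the Hoxc12-low WT, DKO, interneuron and mES libraries. Groups 11 to 13 (red) take 5.04% to 10.3% in the Hoxc12-high and 0.588% to 2.64% in the Hoxc12-low libraries. Hoxc12, which defined the split, is counted among them.

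Noncoding RNAs next to the posterior genes differed in the same direction. Hotair, a long noncoding RNA transcribed between Hoxc12 and Hoxc11, had signal of 41.0, 31.2 and 55.6 in the Hoxc12-high libraries and 2.85, 3.14 and 10.5 in the Hoxc12-low libraries, a log2 difference of 2.90 ± 0.46 (SE). Hoxa11os, antisense to Hoxa11, had 109, 137 and 199 in the Hoxc12-high libraries and 39.6, 71.3 and 94.0 in the Hoxc12-low libraries, a log2 difference of 1.15. The sets did not overlap for either RNA. The library kit named in the labels does not mark strand, so reads of Hoxa11os and Hoxa11 where they overlap cannot be told apart. The other 3 measured members of the noncoding list, Haunt, Hoxd3os1 and Gm53, overlapped between the sets.

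Libraries that the division did not use give the levels of the same genes elsewhere. Hoxc12 had signal of 672 and 382 in the 2 DKO libraries, 735 in V1, 125 in V2a, and 0 in V3 and in both mES libraries. Hoxc13 had 113 and 48.8 in the DKO libraries, 295 in V1, 39.7 in V2a and 0 in V3. The DKO libraries thus lay within or above the Hoxc12-high WT range for both genes. Hotair was at 110 and 89.4 in the DKO libraries, 139 in V1, 25.9 in V2a and 9.32 in V3. Hoxc11 was at 317 and 227 in the DKO libraries, 461 in V1, 215 in V2a and 86.7 in V3, so group 11 transcripts were present in V3, where Hoxc12 was not detected. In the mES libraries the summed signal of group 11 was 1.52 and 1.92. The share of groups 11 to 13 was 11.5% and 7.85% in the DKO libraries with Hoxc12 counted, and 6.63% and 5.05% without it. On both measures the DKO libraries lay above all 3 Hoxc12-low WT libraries. Set against the WT libraries, the DKO group thus held 2 libraries with high Hoxc12, where the WT group held 3 with high and 3 with low Hoxc12.

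Y-linked transcripts followed the split in the WT libraries without exception. The summed signal of Ddx3y, Eif2s3y, Kdm5d and Uty was 334, 585 and 855 in the Hoxc12-high libraries and 11, 0 and 0.553 in the Hoxc12-low libraries. Xist, the noncoding RNA of the inactive X chromosome, was at 869, 1.19 and 1.64 in the Hoxc12-high libraries and 1032, 505 and 1197 in the Hoxc12-low libraries. WT replicate 1 was thus high for both Xist and Y-linked transcripts, and the other 5 were high for one of them. Eif2s3x, the X-linked partner of Eif2s3y, had 1463, 1499 and 1236 in the Hoxc12-high libraries and 2552, 2278 and 1878 in the Hoxc12-low libraries, and the sets did not overlap. Within the 6 WT libraries, presence of Y-linked RNA and high Hoxc12 signal cannot be told apart.

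Outside the WT libraries 4 of 7 went the same way and 3 did not. The DKO library of replicate 1 had a Y-linked sum of 0.477 beside a Hoxc12 signal of 672, and that of replicate 2 had a sum of 1024 beside 382. V3 had a sum of 612 and no Hoxc12 signal, and the mES NP library had a sum of 1316 and no Hoxc12 signal. In V1 and V2a both were present, with Y-linked sums of 807 and 483, and in the mES pMN library both were at 0. Between the DKO libraries, whose Y-linked signal differed, Hoxc13 differed by 1.19, Hoxc11 by 0.48, Hoxd11 by 0.19 and Hoxa11 by -0.04 on the log2 scale (replicate 1 minus replicate 2). This is 1 library against 1, both with high Hoxc12, and the part of Y-linked signal in these differences was not tested.

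**Figure D4:**
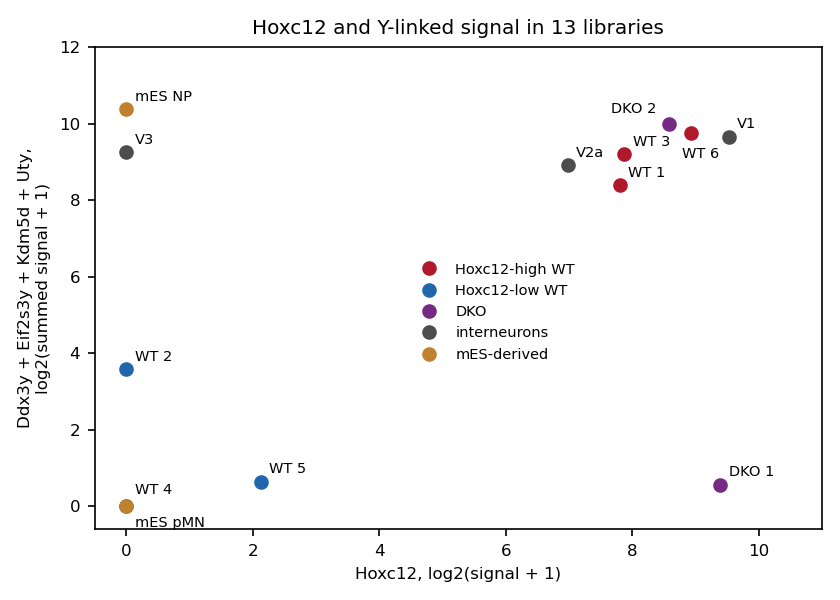
Summed signal of the Y-linked genes Ddx3y, Eif2s3y, Kdm5d and Uty against Hoxc12 signal in 13 libraries, both as log2(signal + 1), coloured by kind of library. The Hoxc12-high WT libraries lie at the upper right and the Hoxc12-low WT libraries at the lower left, while DKO replicate 1 (Hoxc12 at 672, Y-linked sum 0.477), V3 (Hoxc12 at 0, Y-linked sum 612) and mES NP (Hoxc12 at 0, Y-linked sum 1316) lie off that line.

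Across the rest of the transcriptome, the DKO pair was set beside the WT split. Of the 149 genes other than Hoxc12 whose WT sets did not overlap and differed at least 2-fold, 81 (54.4%) differed in the same direction between the DKO library with more Hoxc12 and the one with less, and 8451 of all 16179 genes (52.2%) did so. None of the 4 Y-linked genes did. The 2 DKO libraries are 1 against 1 and both had high Hoxc12, so these are descriptions.

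Hox cofactors of the Meis, Pbx and Prep families, which bind DNA together with Hox proteins, differed slightly. Among the tested members, Meis1 and Pbx3 were lower and Pknox2 was higher in all Hoxc12-high libraries than in any Hoxc12-low library, as were 2.94% and 3.47% of all genes tested, and no tested member passed the fit over all genes. Pbx3 had signal of 2454, 2696 and 2263 in the Hoxc12-high libraries and 3355, 3160 and 2871 in the Hoxc12-low libraries, a log2 difference of -0.34. Its sets did not overlap, and the nearest values were 2696 in the Hoxc12-high and 2871 in the Hoxc12-low libraries.

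Markers of motoneuron columns did not separate the sets, apart from Etv1 and Fgfr1. Of 15 genes of the limb-innervating lateral motor column, the median log2 difference was -0.10. Aldh1a2, which makes retinoic acid in limb-level motoneurons, had signal of 1958, 3197 and 2562 in the Hoxc12-high libraries and 4373, 4067 and 2645 in the Hoxc12-low libraries. Foxp1, which specifies limb-innervating motoneurons with Hox proteins, had 788, 1333 and 1063 in the Hoxc12-high libraries and 1439, 1324 and 1111 in the Hoxc12-low libraries. The sets overlapped for both genes. Etv1, an ETS factor of motor and sensory pools, had 66.4, 102.5 and 94.1 in the Hoxc12-high libraries and 171, 111 and 106 in the Hoxc12-low libraries, a log2 difference of -0.54. Of 6 genes of axial and body wall columns, Etv1 lay apart downwards and the receptor Fgfr1 upwards, beside 2.94% and 3.47% of all genes tested, and neither passed the fit. None of 5 tested preganglionic genes, 6 phrenic and cervical genes or 14 retinoic acid pathway genes separated the sets.

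Axon guidance and synaptic genes mostly overlapped between the sets. Of 44 guidance and adhesion genes, 2 (Plxnd1 and Sema3f) lay apart upwards and 3 (Efna5, Unc5c and Cdh9) downwards, beside 3.47% and 2.94% of all genes tested, and the list median was -0.12. Unc5c, a netrin receptor, had signal of 340.1, 402 and 419 in the Hoxc12-high libraries and 615, 442 and 462 in the Hoxc12-low libraries, a log2 difference of -0.38. Of 18 neuronal maturation genes, 1 (Vamp1, log2 difference 0.29) lay apart upwards and 2 (Syt1 at -0.22 and Syt4 at -0.31) downwards, beside the same shares, with a median of -0.12. No member of either list passed the fit over all genes.

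Markers of other cells were mostly at low levels, and the medians of several lists were above 0, with no test of the lists. The medians ran from -0.64 for blood to 1.59 for microglia, with the glia and sensory neuron lists at 0.0 and V1 at 0.55. Beside the counts below, 3.47% of all genes tested were higher and 2.94% lower without overlap, and the median over all genes was 0.003. Of 15 tested dorsal and V0 interneuron genes, Lmx1b, Tlx3, Prrxl1 and Pax3 lay above without overlap and the median log2 difference was 0.66. Tlx3, a dorsal excitatory neuron factor, had signal of 25.0, 10.4 and 5.34 in the Hoxc12-high libraries and 2.07, 4.55 and 1.85 in the Hoxc12-low libraries. The summed signal of the dorsal and V0 list was 479, 276 and 241 in the Hoxc12-high libraries and 213, 158 and 350.0 in the Hoxc12-low libraries, which overlapped. Of 9 tested floor and roof plate genes none separated the sets, with a median of 1.0 and sums of 539, 551 and 1520 in the Hoxc12-high libraries and 297, 311 and 872 in the Hoxc12-low libraries. Of 8 tested endothelial and pericyte genes, Cldn5, Egfl7 and Rgs5 lay above without overlap, with a median of 1.28. The summed signal of the endothelial list was 183, 149 and 264 in the Hoxc12-high libraries and 77.0, 82.5 and 120.0 in the Hoxc12-low libraries, and of its defining genes Cldn5 was at 0 in WT replicates 2 and 4 and Cdh5 at 0 in WT replicate 4. The microglia list, with a median of 1.59, was carried by WT replicate 1: its sum was 274, 5.19 and 39.1 in the Hoxc12-high libraries and 4.67, 6.87 and 33.5 in the Hoxc12-low libraries, with C1qa and Csf1r at 0 in WT replicate 2. Its members C1qa, Fcer1g and Lyz2 reached the mean signal of 1 only through the Hoxc12-high libraries (Hoxc12-low means 0.866, 0.359 and 0.67). So did Cdh5 of the endothelial list and Evx2, Pax7 and Phox2a of the dorsal and V0 list. Such members can raise the list medians. Blood genes had sums of 1174, 164 and 8.65 in the Hoxc12-high libraries and 209, 139 and 195 in the Hoxc12-low libraries. The part of these cells in the differences of other genes was not tested. Without WT replicate 1, which carried the microglia list, the log2 differences were 2.65 for Hoxc11, 2.38 for Hoxd11 and 1.43 for Hoxa11. Hoxc13 there differed by 4.23. The endothelial sums of the remaining Hoxc12-high libraries, 149 and 264, still lay above the 3 Hoxc12-low sums. All of these sums were mostly Rgs5 and Egfl7. In WT replicate 3 Rgs5 was at 69.7 and Egfl7 at 51.8. Rgs5 was also at 80.8 in DKO replicate 1. There Cldn5 and Cdh5 were at 0, Pecam1 at 0.804, Kdr at 4.79, Esam at 5.63 and Egfl7 at 22.4. In that library 3 reads in a transcript of 2000 bases give a signal of 3.94, so a value of 0 says little. Pecam1, Cdh5, Kdr, Esam and Pdgfrb overlapped between the sets, and Cldn5 did not.

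**Figure D5:**
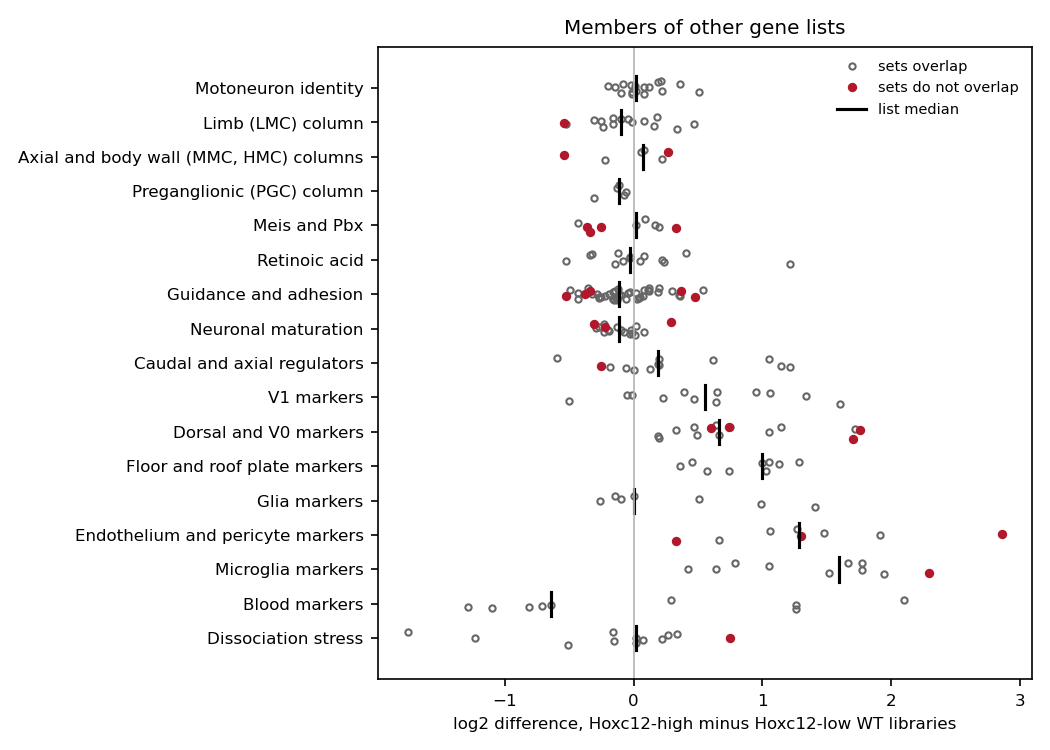
Log2 difference between the Hoxc12-high and Hoxc12-low WT libraries for members of 17 gene lists, with 1 point per tested gene, filled where the sets do not overlap, and a bar at the list median. Motoneuron lists centre near 0 (median 0.02 for motoneuron identity), the endothelial and microglia lists centre at 1.28 and 1.59, and the blood list at -0.64. Some members of the endothelial and microglia lists reached the mean signal of 1 only through the Hoxc12-high libraries.

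The remaining genes with the largest differences and no overlap did not pass the fit over all genes. Eif3j1 and Eif3j2, near-identical genes for a subunit of a translation initiation factor, differed in opposite directions. Eif3j1 had signal of 268, 472 and 171 in the Hoxc12-high libraries and 68.3, 45.1 and 40.5 in the Hoxc12-low libraries. Eif3j2 had 187, 54.5 and 255 in the Hoxc12-high libraries and 652, 404 and 376 in the Hoxc12-low libraries. The deposited table puts both at the same place on chromosome 2, so how reads were split between them is uncertain. Eif3j1 made up 58.9%, 89.65% and 40.1% of their sum in the Hoxc12-high libraries and 9.47%, 10.04% and 9.74% in the Hoxc12-low libraries, and 93.0% and 9.25% in the DKO libraries, which both had high Hoxc12. BC002163, a pseudogene, had 280, 24.8 and 6.54 in the Hoxc12-high libraries and 0 in all 3 Hoxc12-low libraries at its chromosome 16 entry; it has a second entry on chromosome 4, and summed over both entries it differed by -0.33.

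Among the 12 genes named as lower, Snurf, an imprinted transcript shared with Snrpn, had signal of 1254, 1985 and 2507 in the Hoxc12-high libraries and 2678, 3557 and 3616 in the Hoxc12-low libraries, a log2 difference of -0.82 ± 0.24 (SE). Its sets did not overlap, though WT replicate 6 of the Hoxc12-high set lay near replicate 2 of the Hoxc12-low set. Tmem254b, a membrane protein gene, had 113, 97.8 and 129 in the Hoxc12-high libraries and 219, 197 and 163 in the Hoxc12-low libraries, a log2 difference of -0.76. Spink10, 2900009J06Rik, F930015N05Rik, Cda, Cetn4, Pstpip2, Itpripl1 and B230217O12Rik differed by between -1.70 and -0.59. In the other direction 1700029I15Rik differed by 2.24, between mean signals of 21.8 in the Hoxc12-high and 7.12 in the Hoxc12-low libraries.

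Values within the libraries of higher and of lower Rn45s have 1 library on one side and no test. Rn45s still varied within each, from about 10200 to 27900 in the higher and from 644 to about 4270 in the lower. Among replicate 3 (Hoxc12-high) and replicates 2 and 4 (Hoxc12-low), all with high Rn45s, the log2 difference was 3.14 for Hoxc11, 2.87 for Hoxd11, 1.66 for Hoxa11 and 3.01 for Hotair. Among replicates 1 and 6 (Hoxc12-high) and replicate 5 (Hoxc12-low), with lower Rn45s, it was 1.39 for Hoxc11, 0.86 for Hoxd11, 0.48 for Hoxa11 and 2.08 for Hotair. All 4 genes were higher with Hoxc12 in both comparisons, by less in the second. The part of Rn45s in these differences was not tested.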

How the data were processed

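The values are the signal deposited by the authors, a length-scaled abundance on RefSeq gene models with 1 column for each of 13 libraries. The submitters' processing notes name bedtools, DESeq and the builds mm10 and mm9, with no role for any of them; which aligner and counter were used is not given in the sources used here. Libraries had like upper quartiles (75th percentile 228 to 234).

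From the deposited signal, log2(signal + 1) was fitted with limma-trend (limma 3.58.1, R 4.3.3) over the 6 WT libraries for genes with a mean of at least 1, Hoxc12-high minus Hoxc12-low, with Benjamini-Hochberg adjustment over all 16180 genes and a threshold of 0.05. A pseudocount of 1 understates the differences of low genes. The procedure was tested on simulated data. Sets do not overlap where all 3 libraries of one lie above or below all 3 of the other. Depths were estimated from the steps between low values, of which 78.5% to 79.8% lay near a whole multiple of the step taken as 1 read. The step was picked to make this share large, so the share is a score of the fit and the depths are approximate. Gene positions come from GENCODE M21 (GRCm38).

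The named genes were, in each direction, the 12 with the largest difference among genes passing the fit, filled with genes whose sets do not overlap, with a mean of at least 20 in the higher set; all Hox genes and lists of other genes were added. The division, the members and the lists were chosen with earlier results of these data known. Alternatives covered the pseudocount, filter, variance prior, scaling, transcript table, DKO libraries in the fit, a term for Rn45s and leaving out each library; a fit without Y-linked genes and one with a term for Y-linked signal were added after seeing the data. Results for some genes are not reported here.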

Additional observations from a re-analysis of the deposited data

Results flagged for a closer look

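Hoxb4, a paralogue group 4 gene of hindbrain and cervical levels, had signal of 112 in WT replicate 1 of the Hoxc12-high set, far from the 26.6 to 41.1 of the other 5 WT libraries. It was picked out because its gap to the next library was large against the range of the 6 WT libraries. Chance picks out about 1 in 20 such groups, and of all tested Hox and named genes looked at in this way only Hoxb4 was picked out. Several other Hox genes, such as Hoxb3, Hoxb5 and Hoxd3, were also highest in WT replicate 1, and others, such as Hoxc10, were not. The cause was not tested.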

How the results depend on the processing

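No paired analysis was possible because the Hoxc12-high and Hoxc12-low libraries share no replicate number. The count of genes passing as higher was 1, against 5, with a pseudocount of 0.1 and without the variance trend. In both settings that gene was Y-linked. The count was also 1 with the DKO libraries as a group of their own in the fit, and without genes of chromosome Y. There the gene was Hoxc12, which made the split. With a term for Y-linked signal and the DKO libraries in the fit the count was 0; there the Y term rests on 1 DKO library against 1. In that fit Eif2s3y differed by -1.95, Kdm5d by -0.63, Ddx3y by -1.63, Uty by -1.25, 1700029I15Rik by -1.95 and 2900009J06Rik by 1.32, each reversed. Hoxc11 differed by 2.99 and Hoxa11 by 1.18. Each of these values is the WT difference plus that of DKO replicate 1 minus DKO replicate 2. Both DKO libraries had high Hoxc12, so the part of Y-linked signal in the Hox differences was not tested by this fit. BC002163 reversed to -0.33 in the transcript table summed per symbol, where its 2 entries are added. Leaving out 1 library gave 5 to 12 genes higher and 0 to 1 lower. Without WT replicate 5 the 12 included Hotair, Hoxd11, Sst, Hist2h2ab, 4732416N19Rik and Marcksl1-ps4 beside the 5, and without WT replicate 1 Xist passed as lower. Hotair differed by 3.41 and Hoxd11 by 3.01 without replicate 5. Hoxc13 passed without WT replicate 3 (4.88), and Eif3j1 passed without WT replicate 6 (2.81) and with a term for Rn45s (2.72). Of 24 named genes, 23 kept their direction under every alternative chosen at the outset. The tested Hox genes of groups 11 to 13 did so too, with Hoxc12 among them by construction. The sets of all these genes do not overlap, so another pseudocount or a left-out library could not reverse them. Their direction is thus no support, and the settings show only the range of sizes. Hoxc11 ran between 1.78 and 3.05, Hoxd11 between 1.68 and 3.01 and Hoxa11 between 0.87 and 1.57. Hoxc13 ran between 1.70 and 6.83 and Hoxd12 between 0.60 and 4.87. Depth limits Hoxc13 and Hoxd12, which were near 0 in the Hoxc12-low libraries.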
